A study of Mus musculus with 18 samples.

Results

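The comparison described here is that of bone marrow CD4 T cells from zinc-fed pMT-10 mice with the same cells from pMT-10 mice that drank control water. It rests on 6 of the 18 libraries of the series, 3 on each side, chosen by their labels alone. pMT-10 is a mouse strain that carries an interleukin-10 (IL-10) transgene behind a metallothionein promoter, which responds to zinc. The zinc-fed mice had zinc-enriched water for 30 days, and both sides carry the transgene. The labels do not say in which cells the transgene is expressed, or give the age of the mice. A further group, 3 CD4 libraries from zinc-fed C57BL/6 mice, lacks the transgene. It shared the statistical fit, and its levels are set beside those of the other groups where they bear on a result. Cells were purified by fluorescence-activated sorting, and RNA was read with an AmpliSeq panel that amplifies 1 short piece (amplicon) of each of 23930 transcripts. The series' title places the work in the study of how IL-10 and interferon γ act on the production of myeloid cells, and the comparison asks what differed in CD4 cells when zinc was given to mice with the transgene. All zinc-fed libraries were sequenced on one chip and all libraries without zinc on another, so zinc and chip cannot be told apart from the labels.

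IL-10 is a cytokine that signals through a receptor of the chains Il10ra and Il10rb, the kinases Jak1 and Tyk2 and the transcription factor Stat3. It is best known for restraining myeloid cells, and in T cells it is made by regulatory and effector subsets alike. Metallothioneins are small metal-binding proteins, and zinc switches on some of their genes through the factor Mtf1, which binds metal response elements. Bone marrow CD4 T cells include naive cells, memory cells and Foxp3-positive regulatory cells, and their cytokines act on blood-forming cells nearby.

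The 6 libraries held 11764418 to 17446604 reads, and 10950 genes passed the filter on low counts. Levels are given as CPM (read counts scaled by library size to a common total) after TMM scaling, always in the order of replicates 1, 2 and 3, a number that only names a library. Where 1 value is given for a group, it is the mean of its 3 libraries. Log2 fold changes are zinc-fed over without zinc. The value after their ± is an approximate standard error. It is the size of the log2 fold change divided by the square root of the test's F statistic. Adjusted p-values come from edgeR's quasi-likelihood test with Benjamini-Hochberg adjustment over all genes tested, with 0.05 as the threshold for a call. By that rule 1537 genes (14% of those tested) were higher with zinc and 1208 (11%) were lower, and 586 (5.35%) and 637 (5.82%) were so by at least 2-fold. The shares of 14% and 11% are the background for the counts of list members called in CD4 cells below. Values of the groups did not overlap for 2571 higher genes (23.5%) and 2268 lower ones (20.7%), called or not. The median log2 fold change of all genes was -0.01 and moved to -0.19 when libraries were scaled by their size alone, which gave 1004 higher and 2171 lower. The first principal component of the 9 CD4 libraries, C57BL/6 included, held 59.0% of the variance. It placed the zinc-fed pMT-10 libraries at 56.0, 34.8 and 58.6 and those without zinc at -24.2, -24.3 and -27.1. Zinc-fed C57BL/6 libraries lay at -31.4, -28.6 and -13.8. Zinc-fed pMT-10 replicate 2 was thus nearer to the libraries without zinc than the other zinc-fed pMT-10 libraries were. For the 1384 genes called higher with a mean of at least 10 CPM in either group, distances from the mean without zinc were taken. Their median was 0.78, 0.62 and 0.76 on the log2 scale in zinc-fed replicates 1, 2 and 3. For the 921 genes called lower by the same rule it was -0.90, -0.67 and -0.91. Setting pMT-10 cells without zinc against zinc-fed C57BL/6 cells, a pair that also differs in zinc, chip, strain and the presence of Y-linked RNA, gave 17 called genes (0.155% of those tested). By CPM without TMM scaling, 0 of the tested genes lay above all 6 chip B libraries in every one of the 12 chip A libraries. Another 4 lay below, none of them called. These libraries span both cell types, so the count cannot show a chip difference in genes that vary between groups.

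**Figure D1:**
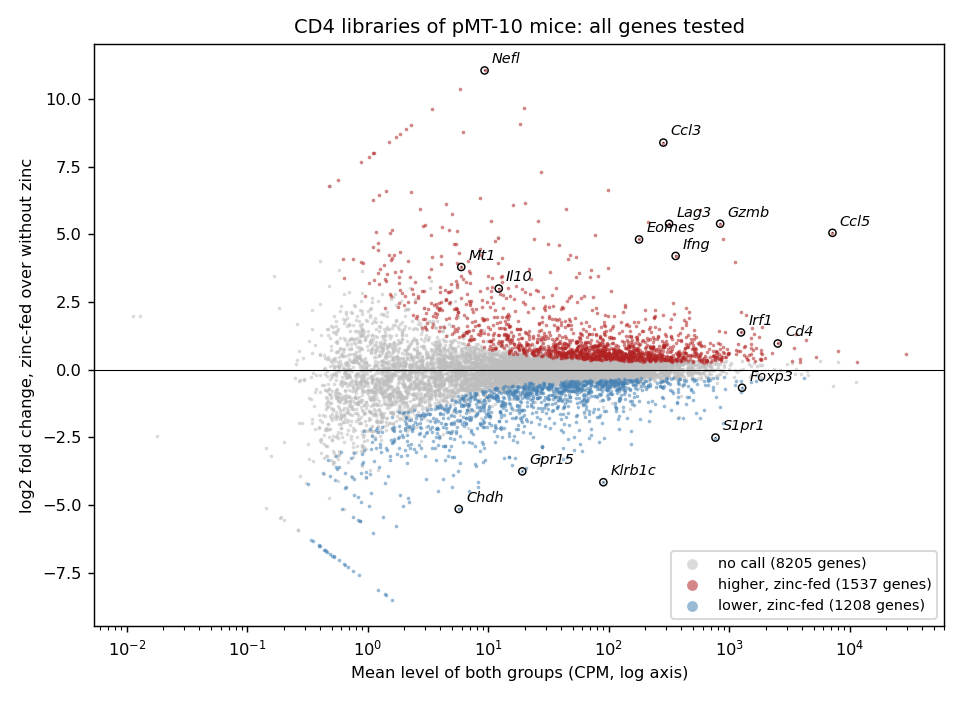
Mean level of both groups (CPM, log axis) against the log2 fold change, zinc-fed pMT-10 over pMT-10 without zinc, for every gene tested in CD4 cells. The 1537 genes called higher are red, the 1208 called lower are blue, and Nefl, Ccl3, Gzmb and Ccl5 lie far above 0 while Klrb1c, Gpr15 and Chdh lie far below.

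The sorted cells carried the RNA of CD4 T cells. Cd4, the coreceptor used in the sort, had 3246, 3251 and 3512 CPM in the zinc-fed libraries, against 1644, 1722 and 1751 CPM without zinc, without overlap (log2 fold change 0.97 ± 0.09, adjusted p = 3.17e-06). Its call was lost when all 18 libraries were fitted together. Cd8a, which marks the other sorted population, had 2.41, 1.35 and 0.309 CPM in the zinc-fed libraries, against 4.11, 0.214 and 0.887 CPM without zinc and was not called. Cd3g, a chain of the T cell receptor complex, had 2557, 2201 and 2699 CPM in the zinc-fed libraries, against 1076, 989 and 1141 CPM without zinc (log2 fold change 1.22 ± 0.10, adjusted p = 1.4e-06). In bulk RNA, fewer cells of a type and less RNA per cell cannot be told apart. Platelet RNA stood out in 1 library. The summed level of the 9 platelet markers on the panel was 2.48, 4.97 and 180.4 CPM in the zinc-fed libraries, against 3.21, 7.42 and 4.31 CPM without zinc. Its part in other results was not tested beyond leaving that library out.

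The promoters of 2 metallothionein genes are shown first, since both genes were higher in zinc-fed cells. Capitals mark the core of the metal response element, TGCACNC or TGCGCNC on either strand, and each sequence runs from 250 bases before to 50 after the RefSeq start (build GRCm38.p6, plus strand). Mt1 lies at chr8:94178839-94179138 and holds 3 matches, and Mt3 lies at chr8:94152357-94152656 and holds 1.
Mt1: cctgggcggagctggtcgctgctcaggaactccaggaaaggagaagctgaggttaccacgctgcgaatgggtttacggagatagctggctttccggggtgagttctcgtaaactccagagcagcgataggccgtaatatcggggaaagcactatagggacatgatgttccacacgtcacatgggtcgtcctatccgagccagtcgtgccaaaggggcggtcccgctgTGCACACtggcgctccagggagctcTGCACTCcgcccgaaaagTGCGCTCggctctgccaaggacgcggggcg
Mt3: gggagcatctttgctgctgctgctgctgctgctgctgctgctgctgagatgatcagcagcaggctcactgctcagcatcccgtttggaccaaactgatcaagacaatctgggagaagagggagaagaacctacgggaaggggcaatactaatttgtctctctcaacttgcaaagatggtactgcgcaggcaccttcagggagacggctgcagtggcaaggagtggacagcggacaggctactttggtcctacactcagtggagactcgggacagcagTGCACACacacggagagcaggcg
Of all 32851 such promoter windows in the RefSeq table, 25.7% held the core, and of the 17 windows that belong to tested genes of the metallothionein and zinc transporter list, 8 did (47.1%). A match describes letters only.

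Transcripts of the induced gene and of the metallothioneins Mt1 and Mt3 were higher in every zinc-fed library. Il10 (chr1:131019845-131024974, plus strand) had 26.7, 16.9 and 21.6 CPM in the zinc-fed libraries, against 3.08, 3.63 and 1.39 CPM without zinc, an 8.03-fold difference (log2 fold change 3.0 ± 0.40, adjusted p = 7.23e-05). The groups did not overlap, and the exact two-sided permutation test of 3 against 3 gave p = 0.1, the smallest it can give. Zinc-fed C57BL/6 cells, which have no transgene, had 6.13 ± 2.73 CPM (SD, n = 3), between the other groups. The labels do not say whether the Il10 amplicon lies in a part that the transgene carries, so RNA of the transgene and of the mouse's own gene cannot be told apart.

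Mt1 (chr8:94179082-94180327) had 8.64, 11.5 and 13.3 CPM in the zinc-fed libraries, against 0.257, 1.39 and 0.697 CPM without zinc, 14.3-fold higher (log2 fold change 3.79 ± 0.50, adjusted p = 5.95e-05). Mt3, a metallothionein first known from brain (chr8:94152607-94154146), had 13.3, 8.58 and 17.2 CPM in the zinc-fed libraries, against 1.28, 1.44 and 0.507 CPM without zinc (log2 fold change 3.58 ± 0.46, adjusted p = 5.2e-05). The lowest zinc-fed value of either gene was several times the highest value without zinc, and zinc-fed C57BL/6 cells had 4.43 ± 1.29 CPM of Mt1 and 1.65 ± 0.556 CPM of Mt3. Mt2 has no amplicon of that name on the panel. Of the 19 tested genes of this list (21 of its 23 members are on the panel), 5 were higher (background 14%) and 0 lower (background 11%). The others called were the zinc importer Slc39a6 (34.5, 21.6 and 25.1 CPM in the zinc-fed libraries, against 6.81, 5.18 and 6.02 CPM without zinc, 2.17 ± 0.30, adjusted p = 9.67e-05) and 2 more. The zinc exporter Slc30a4 was higher (16 CPM with zinc against 6.3 without, 1.35 ± 0.29, adjusted p = 0.00295), as was the heme-degrading enzyme Hmox1 (19.2 CPM with zinc against 7.96 without, 1.27 ± 0.25, adjusted p = 0.00134). The call of Hmox1 was lost in the fit of all 18 libraries. Mtf1, the zinc-sensing factor, had 24.2 CPM with zinc against 21.3 without on average and was not called (0.19 ± 0.18, adjusted p = 0.499). Slc30a1, a zinc exporter that Mtf1 controls, stood near 1 CPM in both groups and was not called either.

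**Figure D2:**
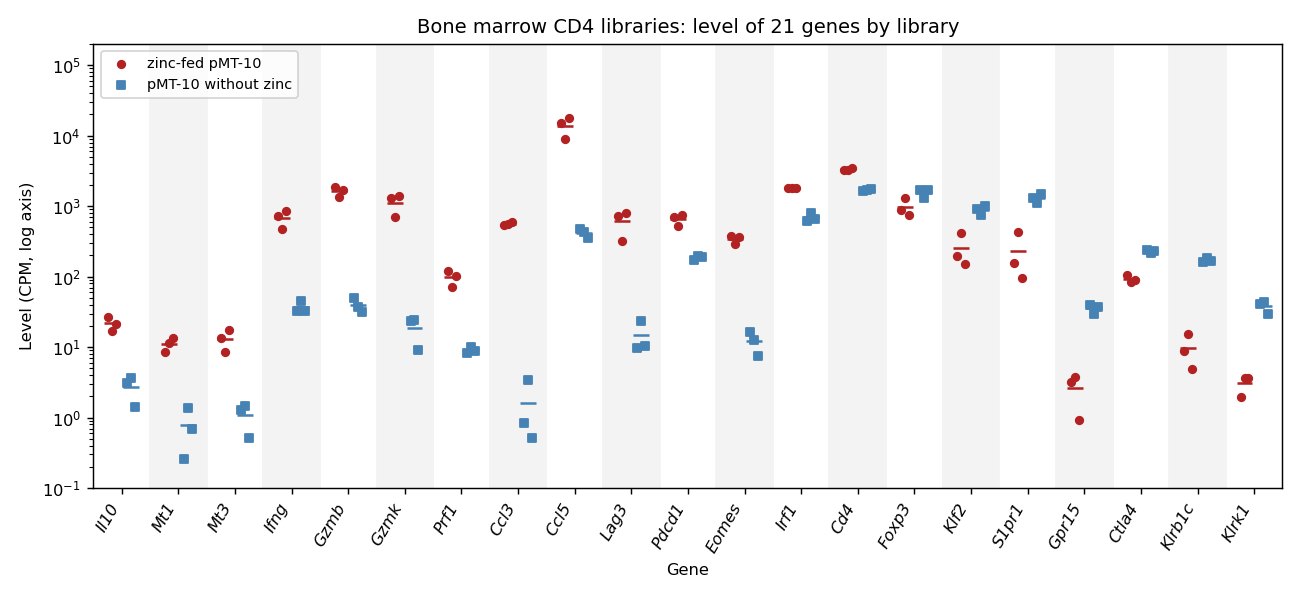
Level of 21 genes (CPM, log axis) in each CD4 library, red circles for zinc-fed pMT-10 and blue squares for pMT-10 without zinc, with a bar at each group's mean. The means of the groups are apart by more than 10-fold for Ifng, Gzmb, Ccl3, Lag3 and Eomes upward and for Gpr15, Klrb1c and Klrk1 downward, and come closest for Foxp3.

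Genes of the IL-10 receptor and STAT3 pathway were more often higher than lower. Of the 21 tested, 11 were higher, 4 lower and 6 not called (background 14% higher and 11% lower). The median log2 fold change was 0.73, and Il10 itself is among the higher members. Il10ra, the ligand-binding chain, had 666, 591 and 748 CPM in the zinc-fed libraries, against 309.9, 289 and 305 CPM without zinc (log2 fold change 1.15 ± 0.12, adjusted p = 9.33e-06). Il10rb, the shared second chain, averaged 386 CPM with zinc against 361 without and was not called (0.1 ± 0.10, adjusted p = 0.515), and neither were the kinases Jak1 (0.02 on the log2 scale) and Tyk2 (0.09). Stat3 had 916, 864 and 763 CPM in the zinc-fed libraries, against 511, 533 and 455 CPM without zinc, a 1.70-fold difference without overlap (log2 fold change 0.76 ± 0.11, adjusted p = 9.67e-05).

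Genes known as targets of Stat3 were called in both directions. Bcl3, a nuclear partner of NF-κB, had 295, 234 and 275 CPM in the zinc-fed libraries, against 76.8, 94.5 and 65.8 CPM without zinc (log2 fold change 1.76 ± 0.16, adjusted p = 2.01e-06). Sbno2, which carries IL-10 signals in macrophages, had 392, 326 and 359.96 CPM in the zinc-fed libraries, against 141, 155 and 157 CPM without zinc (log2 fold change 1.25 ± 0.11, adjusted p = 1.6e-06). All 3 zinc-fed libraries exceeded all 3 without zinc by more than 2-fold for both genes. Socs3, the feedback inhibitor of this pathway, was low everywhere. It had 3.28, 1.63 and 1.93 CPM in the zinc-fed libraries, against 0.514, 0.267 and 0.634 CPM without zinc (log2 fold change 2.27 ± 0.76, adjusted p = 0.0402). That call was lost under library-size scaling, with no filter, in the fit of all 18 libraries and without each of the 6 libraries in turn. Pim1, a survival kinase gene, was lower (693 CPM with zinc against 1142 without, -0.72 ± 0.19, adjusted p = 0.0141), and its call was lost without replicate 1 or 3 of the libraries without zinc. Nfkbiz, a nuclear NF-κB regulator, was lower too (162 CPM with zinc against 252 without, -0.63 ± 0.16, adjusted p = 0.00731). Of the pathway's cytokine receptors, Il21r had 477 CPM with zinc against 238 without (1.0 ± 0.11, adjusted p = 1.3e-05), while both chains of the IL-6 receptor were lower. Il6st, the signalling chain, had 135, 195 and 163 CPM in the zinc-fed libraries, against 419.7, 432 and 390.3 CPM without zinc (log2 fold change -1.33 ± 0.15, adjusted p = 2.17e-05). Il6ra had 3.21, 15.2 and 2.63 CPM in the zinc-fed libraries, against 45.7, 49.2 and 52 CPM without zinc (log2 fold change -2.84 ± 0.58, adjusted p = 0.00902). Zinc-fed replicate 2 stood several times above the other zinc-fed libraries of Il6ra though still below every library without zinc.

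Ifng, the gene of interferon γ (chr10:118441046-118445892), had 721, 476 and 842 CPM in the zinc-fed libraries, against 32.8, 45.4 and 32.5 CPM without zinc, 18.4-fold higher (log2 fold change 4.2 ± 0.38, adjusted p = 0.00011). The zinc-fed values exceeded those without zinc by more than 10-fold in every pairing, and zinc-fed C57BL/6 cells had 49.5 ± 23.5 CPM. Tmevpg1, the noncoding RNA whose gene neighbours Ifng and which is known to favour its expression, had 102, 82.2 and 129 CPM in the zinc-fed libraries, against 7.84, 10.8 and 7.35 CPM without zinc (log2 fold change 3.59 ± 0.22, adjusted p = 6.78e-08). Of the 15 tested T cell factors that act on blood formation, 3 were higher, 3 lower and 9 not called (14% of all genes tested were higher and 11% lower). Only 1 was lower without zinc-fed replicate 1 or without replicate 2 of those without zinc, and 5 were lower under library-size scaling or in the fit of the 6 pMT-10 libraries. With no filter 5 were higher. Csf1, the macrophage growth factor, had 180.3, 129 and 259 CPM in the zinc-fed libraries, against 102, 106 and 106 CPM without zinc (log2 fold change 0.86 ± 0.19, adjusted p = 0.00413), and this call was lost in the fit of all 18 libraries. Areg, a growth factor of the epidermal family, had 9.58, 20.6 and 6.41 CPM in the zinc-fed libraries, against 1.86, 3.52 and 0.887 CPM without zinc (log2 fold change 2.52 ± 0.53, adjusted p = 0.00287). Tnfsf11, the bone-resorbing signal RANKL, had 7.97, 16.5 and 13.4 CPM in the zinc-fed libraries, against 38.1, 38.3 and 36.1 CPM without zinc (log2 fold change -1.58 ± 0.23, adjusted p = 0.000119). Lta (18.6 CPM with zinc against 39.9 without) and Ltb (966 CPM with zinc against 1300.5 without) were also lower, though leaving out any of 3 libraries ended the call of each. Csf2, the gene of GM-CSF, had 0.469, 0 and 0.155 CPM in the zinc-fed libraries, against 1.09, 1.87 and 2.22 CPM without zinc and was not called. Tnf had 3.48, 4.52 and 4.17 CPM in the zinc-fed libraries, against 1.54, 3.9 and 2.91 CPM without zinc and was not called either.

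Of 16 tested regulators of the type 1 programme, which drives interferon γ and killing, 9 were higher, 3 lower and 4 not called. The lower ones numbered 6 under library-size scaling, and 5 with no filter or in the fit of the 6 pMT-10 libraries. The higher ones numbered 6 without replicate 3 of the libraries without zinc. They numbered 7 without replicate 1 of those, without zinc-fed replicate 3, under library-size scaling and in the fit of all 18 libraries. Eomes, a T-box factor of cytotoxic cells (chr9:118478212-118486132), had 378, 287 and 366 CPM in the zinc-fed libraries, against 16.6, 12.7 and 7.54 CPM without zinc, 28.1-fold higher (log2 fold change 4.81 ± 0.34, adjusted p = 9.33e-06). Tbx21, its relative and the usual driver of this programme in CD4 cells, had 59.7, 71 and 60.5 CPM in the zinc-fed libraries, against 79.3, 98 and 77.5 CPM without zinc and was not called (-0.41 ± 0.16, adjusted p = 0.0768). The zinc-fed values of Tbx21 all lay below those without zinc, and zinc-fed C57BL/6 cells averaged 44.4 CPM. Tbx21 was also among the 17 genes called between pMT-10 cells without zinc and zinc-fed C57BL/6 cells. Id2 had 397, 329.9 and 437 CPM in the zinc-fed libraries, against 143, 134 and 137 CPM without zinc (log2 fold change 1.49 ± 0.13, adjusted p = 1.4e-06). Runx3 had 532, 339 and 387 CPM in the zinc-fed libraries, against 187, 163 and 156 CPM without zinc (log2 fold change 1.31 ± 0.16, adjusted p = 4.51e-05). Bhlhe40, which promotes cytokine output, had 522, 614 and 555 CPM in the zinc-fed libraries, against 123, 163 and 118 CPM without zinc (log2 fold change 2.06 ± 0.26, adjusted p = 0.000304). These 3 factors were higher in every zinc-fed library. The IL-12 receptor split. Il12rb1 had 271, 223 and 259 CPM in the zinc-fed libraries, against 65.1, 86.3 and 71.9 CPM without zinc (log2 fold change 1.75 ± 0.17, adjusted p = 4.48e-06). Il12rb2, its inducible signalling chain, had 6.29, 14.5 and 9.27 CPM in the zinc-fed libraries, against 65.4, 79.3 and 74.2 CPM without zinc (log2 fold change -2.87 ± 0.37, adjusted p = 0.000238). The receptor chains for interferon γ itself were both lower. Ifngr1 had 481, 712 and 455 CPM in the zinc-fed libraries, against 1016, 819 and 918 CPM without zinc (log2 fold change -0.74 ± 0.15, adjusted p = 0.00186). Ifngr2 had 5.36, 17.5 and 4.95 CPM in the zinc-fed libraries, against 30.3, 33.6 and 32.2 CPM without zinc (log2 fold change -1.81 ± 0.39, adjusted p = 0.00615).

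Cytotoxic granule genes made up one of the widest differences: of the 21 tested, 15 were higher, 1 lower and 5 not called, with a median log2 fold change of 1.29. Gzmb, a granule protease that kills target cells (chr14:56258838-56262260), had 1861, 1345 and 1707 CPM in the zinc-fed libraries, against 49.1, 36.9 and 31.2 CPM without zinc, 41.9-fold higher (log2 fold change 5.39 ± 0.47, adjusted p = 0.000181). Gzmk had 1292, 692 and 1373 CPM in the zinc-fed libraries, against 23.8, 24 and 9.0 CPM without zinc, 59.2-fold higher (log2 fold change 5.88 ± 0.87, adjusted p = 0.00371). Prf1, the pore-forming perforin, had 121, 70.8 and 103 CPM in the zinc-fed libraries, against 8.22, 10.2 and 8.87 CPM without zinc (log2 fold change 3.43 ± 0.26, adjusted p = 1.17e-06). For all 3 genes zinc-fed replicate 2 was the lowest of its group and still far above every library without zinc. Nkg7, a granule membrane protein, averaged 2109 CPM with zinc against 133 without (3.99 ± 0.52, adjusted p = 0.00172). The death ligand Fasl had 51.7, 34.4 and 50.2 CPM in the zinc-fed libraries, against 15.7, 14.8 and 12.6 CPM without zinc (1.66 ± 0.22, adjusted p = 6.12e-05), and Tnfsf10, the ligand TRAIL, was higher as well (576 CPM with zinc against 104 without, 2.47 ± 0.23, adjusted p = 2.21e-05). Crtam, a surface molecule of cytotoxic CD4 cells, had 29, 39.4 and 32.5 CPM in the zinc-fed libraries, against 7.77, 5.77 and 5.39 CPM without zinc (log2 fold change 2.41 ± 0.23, adjusted p = 3.38e-06). Not every granzyme was part of this. Gzma had 2.28, 0.0903 and 3.48 CPM in the zinc-fed libraries, against 4.24, 1.82 and 1.52 CPM without zinc and was not called. Gzmm averaged 1.72 CPM with zinc against 3.81 without and Gzmc averaged 1.77 CPM with zinc against 0.891 without, and neither was called. Lamp1 was the 1 lower member (110.1 CPM with zinc against 150.4 without), and leaving out any of 5 libraries ended its call. Granzyme and chemokine genes lie in clusters of close relatives, and how reads were assigned among them is not given in the sources used here.

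Of 8 tested chemokine genes, 4 were higher and 0 lower. Ccl3 (chr11:83647844-83649355) had 537, 561 and 598 CPM in the zinc-fed libraries, against 0.835, 3.47 and 0.507 CPM without zinc, 352-fold higher (log2 fold change 8.39 ± 0.97, adjusted p = 0.00119). Ccl4 had 59.2, 55.4 and 49.6 CPM in the zinc-fed libraries, against 0.0642, 0.694 and 0.19 CPM without zinc, 173-fold higher (log2 fold change 7.32 ± 0.68, adjusted p = 4.2e-05). Ccl5 had 14958, 8945 and 17885 CPM in the zinc-fed libraries, against 473, 427 and 358 CPM without zinc, 33.2-fold higher (log2 fold change 5.05 ± 0.62, adjusted p = 0.00159). These 3 encode secreted attractants of T cells and myeloid cells, and no value of one group overlapped the other. Zinc-fed C57BL/6 cells had 9.92 ± 9.51 CPM of Ccl3 and 692 ± 493 CPM of Ccl5. Ccl9 had 9.11, 12.8 and 8.19 CPM in the zinc-fed libraries, against 0, 0.534 and 0.634 CPM without zinc (log2 fold change 4.64 ± 0.86, adjusted p = 0.00136). Xcl1 averaged 34 CPM with zinc against 59.4 without and Cxcl10 averaged 38.2 CPM with zinc against 66.5 without, and neither was called.

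Of 21 tested trafficking receptors, 4 were higher, 7 lower and 10 not called, with a median log2 fold change of -1.02. The lower ones numbered 10 without zinc-fed replicate 2, and 5 without replicate 1 or 3 of the libraries without zinc. S1pr1, the receptor that lets lymphocytes leave tissues, had 158, 436 and 96.5 CPM in the zinc-fed libraries, against 1305, 1125 and 1484 CPM without zinc (log2 fold change -2.51 ± 0.55, adjusted p = 0.0181). Cxcr4, which holds cells in bone marrow, had 75.5, 123 and 78.8 CPM in the zinc-fed libraries, against 262, 243 and 159 CPM without zinc (log2 fold change -1.26 ± 0.20, adjusted p = 0.000549). In both genes zinc-fed replicate 2 was the highest of its group and below each library without zinc. Gpr15, a gut and skin homing receptor, had 3.21, 3.79 and 0.927 CPM in the zinc-fed libraries, against 39.7, 29.5 and 37.6 CPM without zinc, and here replicate 2 did not stand apart (log2 fold change -3.75 ± 0.33, adjusted p = 2.87e-06). Ccr7, a lymph node homing receptor, had 99.7, 361 and 64.1 CPM in the zinc-fed libraries, against 587, 548 and 619 CPM without zinc and was not called (-1.74 ± 0.64, adjusted p = 0.0993), with the same pattern over the zinc-fed libraries. Among the higher members were Ccr2 (179.8 CPM with zinc against 87.8 without), Cxcr5 (85.5 CPM with zinc against 51.1 without) and Cxcr3 (382 CPM with zinc against 279 without). The call of Cxcr3 was lost without any of 5 libraries, under library-size scaling and in the fit of all 18 libraries.

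Coinhibitory receptors, which dampen T cell responses, were higher in 8 of 15 tested genes, lower in 2 and not called in 5. Lag3 (chr6:124904361-124911705) had 721, 324 and 808 CPM in the zinc-fed libraries, against 9.76, 23.8 and 10.3 CPM without zinc, 42.2-fold higher (log2 fold change 5.39 ± 0.78, adjusted p = 0.00334). Havcr2, the gene of TIM-3, had 27.3, 11.4 and 27 CPM in the zinc-fed libraries, against 0.642, 1.12 and 0.634 CPM without zinc (log2 fold change 4.75 ± 0.46, adjusted p = 4.07e-06). Pdcd1, the gene of PD-1, had 707, 519 and 748 CPM in the zinc-fed libraries, against 170.1, 199 and 190.2 CPM without zinc (log2 fold change 1.82 ± 0.21, adjusted p = 5.81e-05). Zinc-fed replicate 2 had the lowest value of its group for all 3, and the groups did not overlap. Tigit had 172, 142 and 159 CPM in the zinc-fed libraries, against 49.6, 57.8 and 54.6 CPM without zinc (log2 fold change 1.55 ± 0.22, adjusted p = 0.000232). Entpd1, the ectoenzyme CD39, averaged 116 CPM with zinc against 57.5 without (1.02 ± 0.17, adjusted p = 0.000467). Lair1 averaged 25.7 CPM with zinc against 9.08 without (1.5 ± 0.23, adjusted p = 0.00022). Ctla4 (chr1:60887000-60915832) was lower, with 105, 84.6 and 88.4 CPM in the zinc-fed libraries, against 238, 218 and 231 CPM without zinc (log2 fold change -1.3 ± 0.15, adjusted p = 1.99e-05). So was Nt5e, the ectoenzyme CD73 that acts after CD39, with 46.6, 54.6 and 44.1 CPM in the zinc-fed libraries, against 139.9, 148 and 135 CPM without zinc (log2 fold change -1.54 ± 0.14, adjusted p = 2.01e-06). Btla, Cd96 and Cd200 were not called.

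Transcription factors tied to effector and exhausted states were higher in 14 of 18 tested genes, lower in 1 and not called in 3, with a median log2 fold change of 1.53. Tox, the factor most linked with exhaustion, had 485, 538 and 567 CPM in the zinc-fed libraries, against 236, 214 and 210.4 CPM without zinc (log2 fold change 1.27 ± 0.16, adjusted p = 5.95e-05). Tox2 had 167, 119 and 161 CPM in the zinc-fed libraries, against 13.4, 12.7 and 14.3 CPM without zinc (log2 fold change 3.47 ± 0.36, adjusted p = 8.46e-05). Nr4a2, a nuclear receptor induced by antigen receptor signals, had 23.6, 22.1 and 24.7 CPM in the zinc-fed libraries, against 0.321, 2.46 and 3.67 CPM without zinc (log2 fold change 3.44 ± 0.72, adjusted p = 0.00592). No zinc-fed library stood apart in these 3. Irf8 (175 CPM with zinc against 43.9 without, 1.99 ± 0.18, adjusted p = 2.87e-06) and Batf (141 CPM with zinc against 45.6 without, 1.63 ± 0.18, adjusted p = 1.41e-05) were also higher. Maf, which drives Il10 in T cells, was 1.45-fold higher (325 CPM with zinc against 224 without, 0.54 ± 0.12, adjusted p = 0.00385), a call lost in the fit of all 18 libraries. Id3 was the lower member, with 15.4, 33.7 and 18 CPM in the zinc-fed libraries, against 144, 103 and 179 CPM without zinc (log2 fold change -2.68 ± 0.30, adjusted p = 0.000128). Irf4, Nfatc1 and Nr4a1 were not called. Of 16 tested genes linked with type 1 regulatory (Tr1) cells, which make IL-10 without Foxp3, 11 were higher and 2, Ctla4 and Ahr, were lower, the call of Ahr being lost in the fit of all 18 libraries. This list shares Eomes, Gzmb, Lag3, Havcr2 and Pdcd1 with those above, and it holds Il10 itself.

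Genes of naive and resting T cells were lower in 15 of 26 tested, higher in 3 and not called in 8, with a median log2 fold change of -1.18. The count of lower genes was 7 without zinc-fed replicate 1, and 9, 9 and 8 without replicates 1, 2 and 3 of the libraries without zinc. Klf2, which keeps T cells quiescent and drives S1pr1, had 195, 414 and 154 CPM in the zinc-fed libraries, against 903, 748 and 996 CPM without zinc (log2 fold change -1.8 ± 0.34, adjusted p = 0.00588). Pik3ip1, a brake on PI3 kinase, had 44.5, 55.8 and 39.6 CPM in the zinc-fed libraries, against 117, 150.2 and 138 CPM without zinc (log2 fold change -1.54 ± 0.14, adjusted p = 3.01e-06). Foxp1 had 94.5, 139 and 96.8 CPM in the zinc-fed libraries, against 235, 239.6 and 269 CPM without zinc (log2 fold change -1.17 ± 0.15, adjusted p = 3.87e-05). Satb1 had 194, 274 and 199 CPM in the zinc-fed libraries, against 489.9, 544 and 498 CPM without zinc (log2 fold change -1.2 ± 0.16, adjusted p = 8.4e-05). None of these 4 overlapped between the groups. Tcf7, the factor TCF-1 of naive and memory cells, had 765, 1335 and 607 CPM in the zinc-fed libraries, against 1679, 1488 and 1675 CPM without zinc (log2 fold change -0.84 ± 0.23, adjusted p = 0.0245). Il7r, the survival receptor for IL-7, had 221, 549.6 and 205 CPM in the zinc-fed libraries, against 1018, 871 and 850.2 CPM without zinc (log2 fold change -1.49 ± 0.37, adjusted p = 0.0217). The calls of Tcf7 and Il7r were both lost when the 6 pMT-10 libraries were fitted alone, without zinc-fed replicate 1 and without each library that had no zinc. That of Il7r was also lost with no filter on low counts. Zinc-fed replicate 2 held more of both than the other zinc-fed libraries did. Btg1 (1092 CPM with zinc against 720.2 without), Bcl11b (166 CPM with zinc against 111 without) and Ramp1 (38.3 CPM with zinc against 27.1 without) were the 3 higher members. The call of Ramp1 was lost without any of 5 libraries and under 4 other alternatives.

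Of 22 tested regulatory T cell genes, 9 were lower, 3 higher and 10 not called. The lower ones numbered 15 without zinc-fed replicate 2 and 14 under library-size scaling. Foxp3, the factor that defines these cells (chrX:7573644-7595245), had 880.4, 1319.7 and 758 CPM in the zinc-fed libraries, against 1692, 1322 and 1681 CPM without zinc (log2 fold change -0.67 ± 0.17, adjusted p = 0.0112). Zinc-fed replicate 2 and replicate 2 without zinc had nearly the same level, the remaining libraries were well apart, and the call was lost in the fit of all 18 libraries. Ikzf2, the gene of Helios, had 55, 77.1 and 55.7 CPM in the zinc-fed libraries, against 158, 180.1 and 166 CPM without zinc (log2 fold change -1.42 ± 0.22, adjusted p = 0.000566). Nrp1, a marker of regulatory cells from the thymus, had 23.8, 42.4 and 15.5 CPM in the zinc-fed libraries, against 174, 153 and 138 CPM without zinc (log2 fold change -2.51 ± 0.31, adjusted p = 0.000295). Il1rl1, the IL-33 receptor, had 8.3, 20.1 and 7.11 CPM in the zinc-fed libraries, against 114, 55.4 and 106 CPM without zinc (log2 fold change -2.97 ± 0.46, adjusted p = 0.00173). These 3 were lower in all zinc-fed libraries. Il2ra, the high-affinity IL-2 receptor chain, had 171, 472 and 155 CPM in the zinc-fed libraries, against 553, 512 and 496 CPM without zinc and was not called, and zinc-fed replicate 2 was at the level of the libraries without zinc. Rgs1 (209.6 CPM with zinc against 67.4 without), Tnfrsf9 (460.5 CPM with zinc against 193 without) and Itgae (99.7 CPM with zinc against 59 without) were higher. Averaged over its 22 genes as log2(CPM + 1), the list stood at 5.58, 6.30 and 5.43 in the zinc-fed libraries, against 6.64, 6.60 and 6.59 without zinc. The naive list stood at 6.69, 7.41 and 6.50 in the zinc-fed libraries, against 7.93, 7.87 and 7.92. In both, zinc-fed replicate 2 lay between the groups.

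**Figure D3:**
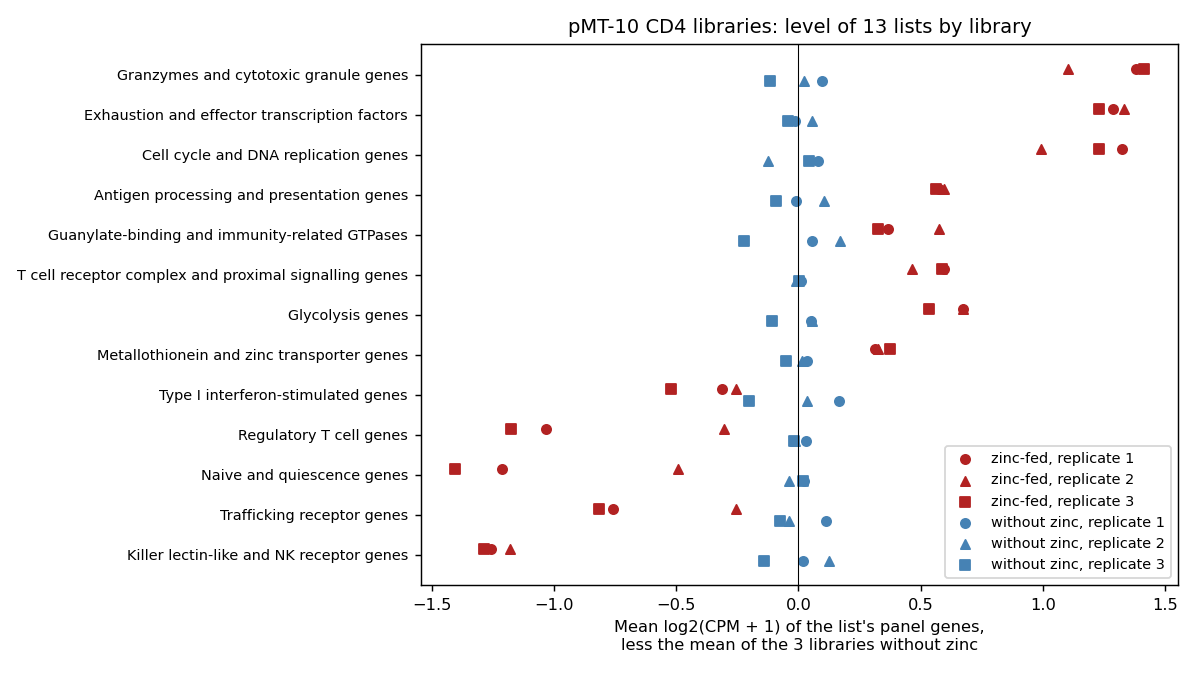
Mean log2(CPM + 1) of the panel genes of 13 lists in each pMT-10 CD4 library, less the mean of the 3 libraries without zinc (red zinc-fed, blue without zinc, marker shape by replicate). Zinc-fed replicate 2 (red triangle) lies closer to 0 than its group for regulatory, naive and trafficking genes, and with its group for exhaustion factors and NK receptors.

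Of 14 tested genes of other helper subsets, 3 were higher, 5 lower and 6 not called (background 14% higher and 11% lower). Gata3, the type 2 factor, had 67.6, 91.1 and 67.5 CPM in the zinc-fed libraries, against 184, 145 and 167 CPM without zinc (log2 fold change -1.13 ± 0.15, adjusted p = 6.1e-05). Rora had 309.8, 315 and 322 CPM in the zinc-fed libraries, against 118, 110.05 and 106 CPM without zinc (log2 fold change 1.5 ± 0.13, adjusted p = 1.28e-06). Bcl6, the follicular helper factor, had 69, 48.8 and 61.3 CPM in the zinc-fed libraries, against 40.5, 31.2 and 24 CPM without zinc (log2 fold change 0.9 ± 0.19, adjusted p = 0.00288). Each of the 3 differed without overlap. The costimulatory genes Icos (88 CPM with zinc against 144 without) and Cd40lg (31.1 CPM with zinc against 53.7 without) were lower, and Il21 averaged 4.85 CPM with zinc against 0.978 without and was not called.

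Killer lectin-like and other NK receptor genes, carried by NK cells and by NK-like T cells, went against the cytotoxic genes. Of 16 tested, 11 were lower, 1 higher and 4 not called, with a median log2 fold change of -3.28. Klrb1c, the gene of NK1.1 (chr6:128778485-128789215), had 8.77, 15.3 and 4.95 CPM in the zinc-fed libraries, against 162, 185 and 165 CPM without zinc (log2 fold change -4.15 ± 0.30, adjusted p = 2.89e-06). Klrk1, the gene of NKG2D, had 1.94, 3.7 and 3.63 CPM in the zinc-fed libraries, against 40.7, 44.1 and 29.4 CPM without zinc (log2 fold change -3.63 ± 0.29, adjusted p = 1.05e-06). Zbtb16, the factor PLZF of NKT cells, had 1.81, 0.723 and 0 CPM in the zinc-fed libraries, against 19.2, 13.8 and 13.3 CPM without zinc (log2 fold change -4.14 ± 0.84, adjusted p = 0.00463). Every zinc-fed library was several times below every library without zinc in these 3 genes. Zinc-fed C57BL/6 cells lay between, with 39.97 ± 5.25 CPM of Klrb1c, 13.8 ± 3.53 of Klrk1 and 4.97 ± 3.93 of Zbtb16, and Klrb1c, Klrk1 and Klrc1 were among the 17 genes called between pMT-10 without zinc and zinc-fed C57BL/6. Klrb1f was the higher member, with 63.7, 54.2 and 76 CPM in the zinc-fed libraries, against 6.87, 10.5 and 6.53 CPM without zinc (log2 fold change 3.02 ± 0.43, adjusted p = 0.000551). Ncr1, which defines NK cells, had 0 reads in all zinc-fed libraries and 0, 0.374 and 0.38 CPM without zinc. The killer lectin genes are close relatives in a cluster, so single members are uncertain.

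Irf1, a transcription factor that interferon γ induces (chr11:53770014-53778374), had 1792, 1799 and 1819 CPM in the zinc-fed libraries, against 622, 804 and 656 CPM without zinc, 2.60-fold higher (log2 fold change 1.38 ± 0.11, adjusted p = 1.05e-06). The zinc-fed libraries differed by little and lay well above the rest. The promoters of Irf1 and of the GTPase gene Gbp2 are shown because these genes were called higher and such promoters are where interferon-activated factors bind. Both sequences are RefSeq windows of the same length (GRCm38.p6, plus strand). In Irf1 (chr11:53769764-53770063, the first of its 2 windows) capitals mark the GAS motif TTCNNNGAA, and in Gbp2 (chr3:142620413-142620712) they mark the ISRE motif, GAAA and GAAA with any 2 bases between them, read on either strand.
Irf1: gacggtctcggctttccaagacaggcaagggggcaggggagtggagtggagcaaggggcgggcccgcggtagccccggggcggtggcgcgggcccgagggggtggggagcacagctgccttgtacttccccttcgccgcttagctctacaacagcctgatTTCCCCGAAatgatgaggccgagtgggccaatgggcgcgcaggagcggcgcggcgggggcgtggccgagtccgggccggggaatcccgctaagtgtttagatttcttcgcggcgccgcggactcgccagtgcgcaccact
Gbp2: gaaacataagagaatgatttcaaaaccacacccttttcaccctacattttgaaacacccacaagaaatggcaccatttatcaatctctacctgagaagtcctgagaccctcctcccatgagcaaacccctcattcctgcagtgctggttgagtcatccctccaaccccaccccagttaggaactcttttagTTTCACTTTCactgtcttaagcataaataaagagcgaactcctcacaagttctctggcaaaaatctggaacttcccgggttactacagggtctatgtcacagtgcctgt
GAS was found in 8.3% and ISRE in 3.44% of all promoter windows. Of the 9 windows that belong to tested guanylate-binding and immunity-related GTPase genes, 4 held GAS (44.4%) and 8 held ISRE (88.9%). Of the 19 windows of tested antigen presentation genes, 2 held GAS (10.5%) and 4 held ISRE (21.1%). No binding was measured here.

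Guanylate-binding and immunity-related GTPases, which act against intracellular microbes, were higher in 8 of 13 tested genes, lower in 1 and not called in 4, and 5 were higher in the fit of all 18 libraries. Gbp2 had 272, 297 and 219.5 CPM in the zinc-fed libraries, against 122, 153 and 96.4 CPM without zinc (log2 fold change 1.09 ± 0.16, adjusted p = 0.000172). Gbp9 averaged 250.3 CPM with zinc against 155 without (0.7 ± 0.12, adjusted p = 0.000583). Gbp4 averaged 954 CPM with zinc against 612 without (0.64 ± 0.12, adjusted p = 0.0011). Gbp2b was lower (1.01 CPM with zinc against 2.97 without), a call lost without any of 5 libraries, with no filter and in the fit of all 18. Antigen processing and presentation genes were higher in 18 of 23 tested and lower in 0, with a median log2 fold change of 0.61. The peptide transporters Tap1 (657, 516 and 611 CPM in the zinc-fed libraries, against 300.1, 341 and 299.8 CPM without zinc, 0.92 ± 0.13, adjusted p = 8.32e-05) and Tap2 (764 CPM with zinc against 381 without, 1.01 ± 0.12, adjusted p = 1.75e-05) were higher. So were the immunoproteasome subunit Psmb8 (1096 CPM with zinc against 566 without, 0.95 ± 0.12, adjusted p = 3.23e-05) and the class I regulator Nlrc5 (748 CPM with zinc against 412 without, 0.86 ± 0.13, adjusted p = 0.000225). B2m, the light chain of class I molecules, was 1.4-fold higher (0.49 ± 0.09, adjusted p = 0.00135). Under library-size scaling 13 of the antigen presentation genes and 6 of the GTPases were still called higher.

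Genes of the type I interferon response were lower in 12 of 34 tested, higher in 5 and not called in 17. The higher ones numbered 3 without zinc-fed replicate 1, without replicate 3 of those without zinc, and in the fit of all 18 libraries. Slfn5 had 38.6, 65.3 and 28.6 CPM in the zinc-fed libraries, against 221, 185 and 189 CPM without zinc (log2 fold change -2.17 ± 0.25, adjusted p = 6.38e-05). Oas1a had 30.7, 34.7 and 29.4 CPM in the zinc-fed libraries, against 66, 62.1 and 60.8 CPM without zinc (log2 fold change -1.0 ± 0.16, adjusted p = 0.000253). Oasl1 had 2.81, 3.61 and 0.773 CPM in the zinc-fed libraries, against 18.8, 9.29 and 9.38 CPM without zinc (log2 fold change -2.38 ± 0.47, adjusted p = 0.00153). Rsad2, an antiviral enzyme, had 3.28, 2.89 and 1.08 CPM in the zinc-fed libraries, against 11.1, 8.44 and 9.69 CPM without zinc (log2 fold change -2.01 ± 0.45, adjusted p = 0.00401). These 4 were lower in each zinc-fed library. Zinc-fed C57BL/6 cells averaged 41.4 CPM of Oas1a and 3.81 CPM of Rsad2, values nearer to those of zinc-fed pMT-10 cells than to those of cells without zinc. Zbp1 (205 CPM with zinc against 112 without), Parp9 (247 CPM with zinc against 171 without) and Isg20 (71.2 CPM with zinc against 43.9 without) were higher, and the call of Parp9 was lost in the fit of all 18 libraries. Of 23 tested interferon receptors, STATs and IRFs, 6 were higher and 7 lower (background 14% and 11%). Irf2 (632 CPM with zinc against 365 without) was higher. Usp18, a brake on type I signalling, was lower (8.44, 13.5 and 5.18 CPM in the zinc-fed libraries, against 36.2, 22.3 and 23 CPM without zinc, -1.59 ± 0.30, adjusted p = 0.00139). So were Stat5b (128 CPM with zinc against 189 without) and Stat6 (316 CPM with zinc against 454 without).

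Cell cycle genes were higher in 23 of 34 tested, lower in 2 and not called in 9, with a median log2 fold change of 1.23. Mki67, the proliferation marker Ki-67, had 69, 44.3 and 46.4 CPM in the zinc-fed libraries, against 11.6, 9.5 and 10.8 CPM without zinc, 5.0-fold higher (log2 fold change 2.32 ± 0.21, adjusted p = 2.1e-06). Ube2c, which acts in mitosis, had 46.3, 34.1 and 36.3 CPM in the zinc-fed libraries, against 6.74, 4.22 and 5.89 CPM without zinc (log2 fold change 2.8 ± 0.23, adjusted p = 1.28e-06). Top2a had 56.9, 38.5 and 56.8 CPM in the zinc-fed libraries, against 11.2, 11 and 15.8 CPM without zinc (log2 fold change 2.0 ± 0.25, adjusted p = 3.87e-05). Cdkn1a, the cell cycle inhibitor p21, was higher as well, with 49.4, 29.4 and 42.9 CPM in the zinc-fed libraries, against 3.66, 3.2 and 2.34 CPM without zinc (log2 fold change 3.72 ± 0.30, adjusted p = 1.05e-06). None of these groups overlapped. Cdk2 and Cdkn1b, the inhibitor p27, were the lower members (58.9 CPM with zinc against 83.3 without and 68.6 CPM with zinc against 95.1 without), and both calls were lost without some libraries. Glycolysis genes were higher in 10 of 14 tested (7 in the fit of all 18 libraries) and lower in 0. Pfkp had 365, 283 and 334 CPM in the zinc-fed libraries, against 93.1, 113 and 127 CPM without zinc (log2 fold change 1.56 ± 0.13, adjusted p = 1.4e-06). Pkm averaged 1545 CPM with zinc against 803 without (0.94 ± 0.09, adjusted p = 3.99e-06). Ldha averaged 1177 CPM with zinc against 771 without (0.61 ± 0.12, adjusted p = 0.00156). Of 17 tested cholesterol synthesis genes, 1 was higher and 1 lower (background 14% and 11%).

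T cell receptor and proximal signalling genes were higher in 21 of 29 tested, lower in 3 and not called in 5, with a median log2 fold change of 0.69. The kinase Fyn had 598, 428 and 644 CPM in the zinc-fed libraries, against 212, 218 and 225 CPM without zinc (1.35 ± 0.14, adjusted p = 7.4e-06). The kinase Zap70 (230.2 CPM with zinc against 118 without, 0.97 ± 0.15, adjusted p = 0.000199), the adaptor Lat (1209.9 CPM with zinc against 446 without, 1.44 ± 0.17, adjusted p = 4.96e-05) and Ptpn22, a phosphatase that damps receptor signals (732 CPM with zinc against 369 without, 0.99 ± 0.11, adjusted p = 1.71e-05) were higher. Dgka, a lipid kinase that damps receptor signals, had 434, 589 and 391 CPM in the zinc-fed libraries, against 1099, 1155 and 1391 CPM without zinc (log2 fold change -1.37 ± 0.14, adjusted p = 9.08e-06). Ptpn6, the phosphatase SHP-1, averaged 100.4 CPM with zinc against 192 without (log2 fold change -0.94 ± 0.20, adjusted p = 0.00355). Prkcq, a kinase that carries receptor signals, was the third lower member (116 CPM with zinc against 149 without, -0.36 ± 0.11, adjusted p = 0.0277). The groups did not overlap for any of these 3, and the call of Prkcq was lost without any of 4 libraries and in the fit of all 18. Among 24 tested immediate early genes, 7 were higher and 4 lower (background 14% and 11%). Egr1 had 368, 505 and 309 CPM in the zinc-fed libraries, against 101, 83.3 and 73.4 CPM without zinc (log2 fold change 2.2 ± 0.33, adjusted p = 0.00157). Egr2 had 13.5, 18.2 and 14.1 CPM in the zinc-fed libraries, against 3.28, 2.3 and 2.15 CPM without zinc (log2 fold change 2.56 ± 0.32, adjusted p = 3.79e-05). Dusp6 had 112, 75.1 and 110.3 CPM in the zinc-fed libraries, against 31.3, 25.9 and 29.8 CPM without zinc (log2 fold change 1.77 ± 0.17, adjusted p = 3.32e-06). These 3 were higher in every zinc-fed library, while Fos (18.6 CPM with zinc against 21.2 without) and Jun (194 CPM with zinc against 203 without) were not called.

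Surface and survival genes differed member by member. The background for each count that follows is 14% higher and 11% lower. Of 17 tested integrin subunits, 5 were higher and 5 lower. Itgal, a chain of the adhesion molecule LFA-1, had 2399.5, 1869 and 2590.3 CPM in the zinc-fed libraries, against 888, 969.5 and 888 CPM without zinc (log2 fold change 1.32 ± 0.12, adjusted p = 2.35e-06). Its partner Itgb2 averaged 2105 CPM with zinc against 936 without (1.17 ± 0.17, adjusted p = 0.000212). Itgb1 had 167, 208 and 146 CPM in the zinc-fed libraries, against 503, 503 and 458 CPM without zinc (log2 fold change -1.49 ± 0.13, adjusted p = 1.4e-06). Of 20 tested Ly6 and activation antigens, 9 were higher and 3 lower. Cd38, an ectoenzyme of activated cells, had 214, 143 and 192 CPM in the zinc-fed libraries, against 22.7, 23.4 and 26.2 CPM without zinc, 7.59-fold higher (log2 fold change 2.92 ± 0.17, adjusted p = 6.26e-08). Ly6a, the antigen Sca-1 that interferons raise, had 2340.4, 1896 and 1893 CPM in the zinc-fed libraries, against 501, 548 and 348 CPM without zinc (log2 fold change 2.13 ± 0.16, adjusted p = 1.16e-06). Cd44, a marker of memory, was lower, with 238, 352 and 222 CPM in the zinc-fed libraries, against 453, 482 and 491 CPM without zinc (log2 fold change -0.81 ± 0.14, adjusted p = 0.000673). Anxa1 had 8.44, 11.7 and 6.26 CPM in the zinc-fed libraries, against 86.8, 56.4 and 101 CPM without zinc (log2 fold change -3.22 ± 0.39, adjusted p = 0.000232). All 4 differed without overlap. Among 14 tested common gamma-chain receptor genes, 3 were higher and 4 lower. Jak3, the kinase of the shared chain (602 CPM with zinc against 208 without, 1.53 ± 0.17, adjusted p = 2.76e-05), and Il15ra (56.3 CPM with zinc against 15.5 without, 1.86 ± 0.24, adjusted p = 4.51e-05) were higher. Il9r was lower (5.23 CPM with zinc against 49.2 without, -3.24 ± 0.35, adjusted p = 3.06e-05). Of 11 tested BCL2 family genes, 2 were higher and 3 lower. The survival genes Bcl2l1 (36.9, 34 and 22.7 CPM in the zinc-fed libraries, against 97.9, 99.2 and 79.8 CPM without zinc, -1.56 ± 0.18, adjusted p = 1.49e-05) and Bcl2 (21.6 CPM with zinc against 41.6 without, -0.95 ± 0.21, adjusted p = 0.00339) were lower. Bak1, which promotes death, was higher (91.2 CPM with zinc against 39.8 without, 1.2 ± 0.21, adjusted p = 0.000825). Of 21 tested TNF superfamily genes, 6 were higher and 8 lower, and of 8 SLAM family genes 4 were higher and 0 lower. Of 12 G-protein regulators 4 were higher and 3 lower, of 7 heat shock genes 1 was higher and 0 lower, and of 12 CD4 and CD8 lineage genes 5 were higher and 5 lower (3 without replicate 2 of the libraries without zinc).

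**Figure D4:**
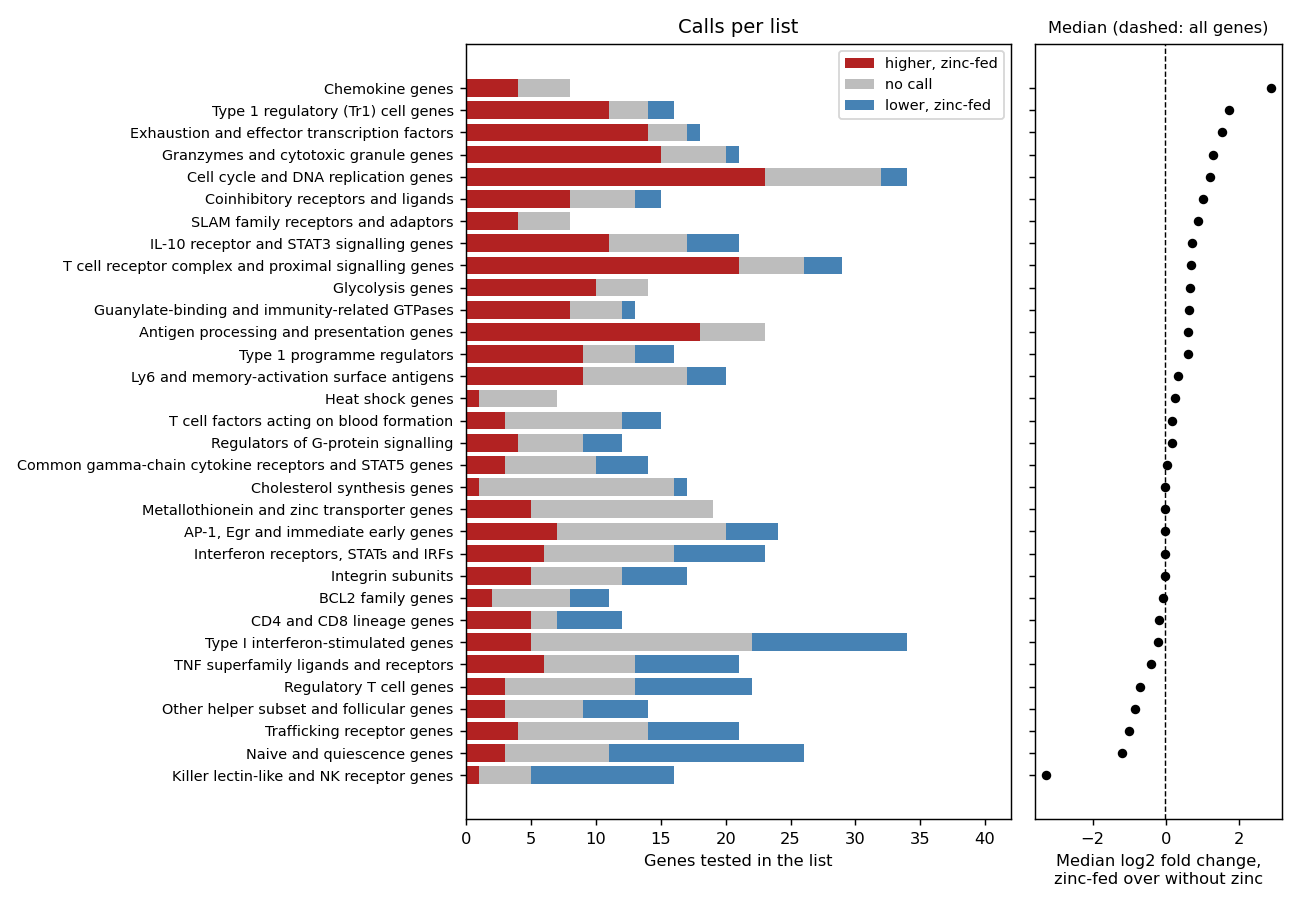
Calls in 32 lists of genes, as the number of tested genes that were higher in zinc-fed cells (red), not called (grey) or lower (blue), beside each list's median log2 fold change. Chemokine, Tr1, exhaustion, cytotoxic and cell cycle genes have the highest medians, and NK receptor, naive and trafficking genes the lowest, against a median of -0.01 over all genes (dashed line).

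The largest differences lay in genes that the lists above do not all hold. Nefl, a neurofilament subunit (chr14:68083863-68089095), had 25.2, 9.39 and 21.2 CPM in the zinc-fed libraries and 0 reads without zinc, at least 324-fold higher as a ratio of pooled counts, scaled by library size, to a floor of 3 pooled counts (adjusted p = 0.000382). Esm1, a secreted proteoglycan, had 222, 135 and 227 CPM in the zinc-fed libraries, against 2.5, 1.92 and 1.39 CPM without zinc, 100-fold higher (log2 fold change 6.64 ± 0.80, adjusted p = 0.00119). Sema7a, a membrane-bound semaphorin, had 98.2, 62.8 and 100.4 CPM in the zinc-fed libraries, against 0.578, 2.46 and 1.14 CPM without zinc (log2 fold change 5.92 ± 0.57, adjusted p = 8.49e-05). Gcg, the glucagon gene, had 21.7, 43.9 and 45.1 CPM in the zinc-fed libraries, against 0, 0.107 and 0.0634 CPM without zinc (adjusted p = 1.47e-05), too few reads without zinc for a fold. The other genes with the largest rises were Ccl3, Ccl4, Clgn, Miat, Pkdcc, Ociad2, 2900011O08Rik and 1700029J03Rik. Among the largest falls, Chdh, a choline-oxidising enzyme, had 0.469, 0.271 and 0.155 CPM in the zinc-fed libraries, against 11, 10.4 and 11.8 CPM without zinc (log2 fold change -5.14 ± 0.43, adjusted p = 1.37e-06). Hdac9, a histone deacetylase, had 0.871, 0.903 and 0 CPM in the zinc-fed libraries, against 17.3, 9.93 and 12.3 CPM without zinc (log2 fold change -4.46 ± 0.59, adjusted p = 8.74e-05). Tlr7, a receptor for single-stranded RNA, had 2.81, 4.61 and 0.309 CPM in the zinc-fed libraries, against 35.3, 21.6 and 29.9 CPM without zinc (log2 fold change -3.51 ± 0.63, adjusted p = 0.00326). The rest of that group were Fhit, Col11a2, Gpr15, Zbtb16 and 5 killer lectin genes. In all, 14 tested genes had reads in every zinc-fed library and 0 reads without zinc, and 23 had the reverse.

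CD8 cells of the same kinds of mice, sequenced on the same chips, gave 577 genes higher (5.1% of 11316 tested) and 299 lower (2.64%) with zinc. These counts come from the fit of all 18 libraries, in which the CD4 comparison gave 1061 higher and 1064 lower. The CD4 counts given above come from the fit of 9 CD4 libraries. The test of the difference between the cell types called 152 genes (1.34%) as higher in CD4 than in CD8 in their zinc difference and 276 (2.44%) as lower. Ifng was higher in both cell types. In CD8 it had 240.04 ± 100.5 CPM in zinc-fed CD8 libraries and 8.95 ± 4.08 CPM in CD8 libraries without zinc (SD, n = 3 each; log2 fold change 4.73 ± 0.49, adjusted p = 1.47e-05), and the difference between cell types was not called (-0.57 ± 0.60, adjusted p = 0.67). Il10 had 12.8 CPM on average in zinc-fed CD8 libraries and 0 reads in CD8 libraries without zinc, and Mt1 had 3.11 ± 1.06 CPM in zinc-fed CD8 libraries and 0.28 ± 0.44 CPM in CD8 libraries without zinc. Eomes was higher by more in CD4, and CD8 cells held it without zinc too (154 ± 43.7 CPM in zinc-fed CD8 libraries and 88.6 ± 7.08 CPM in CD8 libraries without zinc; difference between cell types 3.97 ± 0.38, adjusted p = 1.93e-05). Crtam had 74.3 ± 12 CPM in zinc-fed CD8 libraries and 73.5 ± 3.92 CPM in CD8 libraries without zinc (2.36 ± 0.25, adjusted p = 2.53e-05), nearly the same level. Ctla4 was lower in CD4 and higher in CD8, with 10.9 ± 4.45 CPM in zinc-fed CD8 libraries and 2.16 ± 0.469 CPM in CD8 libraries without zinc (-3.71 ± 0.43, adjusted p = 6.16e-05). Itgb1 was lower in CD4, and in CD8 had 124 ± 31.7 CPM in zinc-fed CD8 libraries and 105 ± 12 CPM in CD8 libraries without zinc (-1.77 ± 0.23, adjusted p = 0.000118). Map6, which was not called in CD4 (55, 49.6 and 61.5 CPM in the zinc-fed libraries, against 46.6, 38.9 and 58.7 CPM without zinc), had 3.71 CPM on average in zinc-fed CD8 libraries and 0 reads in CD8 libraries without zinc.

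**Figure D5:**
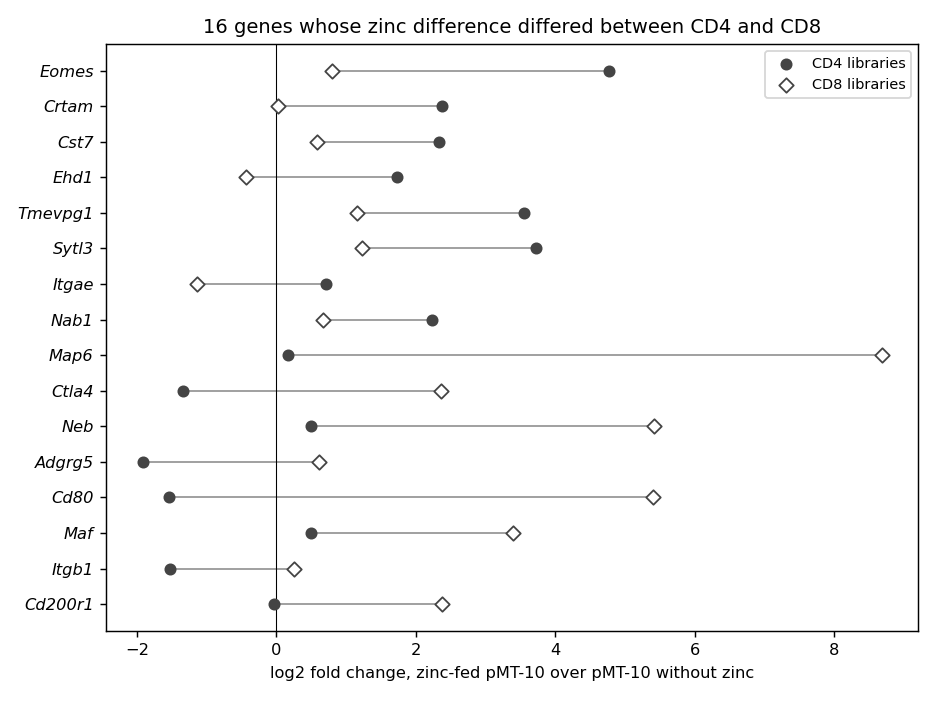
Log2 fold change, zinc-fed pMT-10 over pMT-10 without zinc, in CD4 (filled circles) and CD8 libraries (open diamonds) for the 8 genes with the lowest p in each direction of the test between cell types. Eomes lies near 4.8 in CD4 cells and near 0.8 in CD8 cells, and the points of Map6, Neb and Cd80 in CD8 cells rest on few or no reads without zinc.

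Among markers of other bone marrow cells, those of neutrophils and B cells were low in both groups, as were most monocyte markers. The 13 neutrophil markers on the panel summed to 3.21, 3.79 and 5.25 CPM in the zinc-fed libraries, against 1.61, 0.908 and 1.27 CPM without zinc, with Ly6g, Mpo and Mmp8 at 0 throughout. Of 14 monocyte markers, Cd68 (26.2, 20.7 and 30.3 CPM in the zinc-fed libraries, against 8.67, 10.5 and 11.5 CPM without zinc) and Ccr2, which T cells also express, made up nearly all of the sum, and C1qa, C1qc and Lyz1 were at 0. Cd68 and Ccr2 were both called higher. B cell markers summed to 6.76, 23.8 and 11.6 CPM in the zinc-fed libraries, against 37.1, 30.3 and 34.5 CPM without zinc, with Pax5 at 0. Cd79b was called lower. Lower calls were also made for 1 of 2 tested erythroid, 1 of 3 mast cell and 1 of 2 stroma markers. Of 6 tested dendritic cell markers 1 was higher and 2 lower, and of 4 progenitor markers 2 were higher and 1 lower. In the platelet list zinc-fed replicate 3 alone was high. Pf4 had 0, 0.361 and 73.3 CPM in the zinc-fed libraries, against 0, 0.214 and 0.444 CPM without zinc. Ppbp had 0.402, 0 and 69.9 CPM in the zinc-fed libraries, against 0.0642, 1.87 and 0.317 CPM without zinc.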

How the data were processed

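RNA of sorted cells was amplified with an AmpliSeq panel, per the labels. The authors deposited whole read counts for each amplicon, with no scaling. Per the submitters' processing notes the build is mm10. The sources used here name no aligner and no counting method. Floors (3 pooled counts) cover counting error only, as reads carry no stated molecular identifiers. The design text names 3 mice a group, and p-values measure the spread between these libraries, whose replicate numbers are names only.

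Genes were filtered with filterByExpr, scaled by TMM and fitted in edgeR 4.0.16 (limma 3.58.1, R 4.3.3) with robust quasi-likelihood over 9 CD4 libraries in 3 groups. The comparison with CD8 cells used 18 libraries and 11316 genes. The code was tested on simulated data. Alternatives were DESeq2 1.42.0, other scalings, filters and sample sets, and leaving out each CD4 library of the pMT-10 mice.

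Genes named were Il10, zinc genes called, the 12 largest differences each way (at least 10 CPM in a group, no overlap), members of 46 lists, and the 8 lowest p each way between cell types. The comparison, members and lists were chosen with earlier results of these data known. A fold is a ratio of mean CPM, or of pooled counts to the floor where a group has 0 reads. Levels are compared between groups, not between genes. Promoters are from RefSeq (GRCm38.p6) and gene spans from GENCODE vM21. Listed genes without an amplicon of that name were not analysed here, and some members are not reported here.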

Additional observations from a re-analysis of the deposited data

Results flagged for a closer look

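For the 16 genes below the zinc difference itself differed between CD4 and CD8 cells of pMT-10 mice by the interaction test in edgeR (Benjamini-Hochberg adjusted p over 11316 genes). They are the 8 with the lowest p in each direction, and each value is the log2 zinc difference in CD4 minus that in CD8. Eomes (3.97), Sytl3 (2.49), the noncoding RNA Tmevpg1 (2.39), Crtam (2.36), Ehd1 (2.17), Itgae (1.85), Cst7 (1.75) and Nab1 (1.57) had the higher value in CD4 cells. Itgae, the integrin chain CD103, averaged 99.7 CPM with zinc against 59 without in CD4 cells and had 51.2 ± 6.27 CPM in zinc-fed CD8 libraries and 112 ± 23.7 CPM in CD8 libraries without zinc. On the other side stood Map6 (-8.52), Cd80 (-6.94), Neb (-4.91), Ctla4 (-3.71), Maf (-2.90), Adgrg5 (-2.52), Cd200r1 (-2.42) and Itgb1 (-1.77). Without zinc, CD8 libraries averaged 0 CPM of Map6, 0.0325 CPM of Cd80 and 0.0883 CPM of Neb, so those 3 values rest on few or no reads and are no bounds. Maf averaged 325 CPM with zinc against 224 without in CD4 cells and had 16.2 ± 6.28 CPM in zinc-fed CD8 libraries and 1.51 ± 0.425 CPM in CD8 libraries without zinc. Adgrg5 had 3.35, 2.44 and 3.25 CPM in the zinc-fed libraries, against 9.89, 12.9 and 10.5 CPM without zinc in CD4 cells, and it is also among the 17 genes called between pMT-10 without zinc and zinc-fed C57BL/6 cells.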

How the results depend on the processing

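Of the 210 named genes called in the CD4 comparison, 178 kept their call under every alternative tried, 32 lost it under at least 1, and 0 changed sign. Il10 was called under every one, with log2 fold changes of 2.68 to 3.26. The 210 genes include the largest differences and list members picked by lowest p, so they do not stand for all called genes. Of all 1537 genes called higher and 1208 called lower, 975 and 814 were also called without zinc-fed replicate 1. Library-size scaling gave 1004 higher and 2171 lower genes, against 1537 and 1208 with TMM, and 76 and 537 in the test between cell types, against 152 and 276. In the test between cell types, no filter on low counts gave 231 and 616, and DESeq2 gave 293 and 506. Leaving out each of the 6 CD4 libraries in turn gave 987 to 1547 higher and 843 to 1374 lower genes, with the 987 reached without zinc-fed replicate 1. In the test between cell types the ranges were 41 to 207 higher and 92 to 486 lower. Its counts were 41 and 92 without zinc-fed replicate 1, 207 and 486 without zinc-fed replicate 2, and 64 and 133 without zinc-fed replicate 3. Without replicate 1, 2 or 3 of the libraries without zinc they were 85 and 164, 67 and 134, and 72 and 139. The cause of these changes was not tested. Medians of the zinc, lineage, immediate early, integrin, interferon receptor, cholesterol, gamma-chain, TNF superfamily, G-protein regulator and blood formation lists, and of 6 lists of other cell types' markers, changed sign under at least 1 alternative. Counts of 0 to 2 members of a list moved by at most 3. No paired analysis was possible because the numbers of the replicates come from their listing and link no samples between groups. A level of 1 CPM stands for 11.8 to 17.4 reads in the CD4 libraries of pMT-10 mice, so values below it rest on few reads.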

Other observations

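Lists differed in how their zinc difference in CD4 cells compared with that in CD8 cells of the same kinds of mice. Zinc and chip differ together in both cell types. Background shares for the counts in CD8 cells are 5.1% higher and 2.64% lower with zinc. Among 13 tested guanylate-binding and immunity-related GTPases, 11 were higher with zinc in CD8 cells, while 7 had a smaller value in CD4 than in CD8 and 0 a larger one. Igtp averaged 266 CPM with zinc against 180.1 without in CD4 cells and had 345 ± 34.6 CPM in zinc-fed CD8 libraries and 95.6 ± 17.9 CPM in CD8 libraries without zinc (difference between cell types -1.33 ± 0.27, adjusted p = 0.00949). Of 15 tested coinhibitory genes, 10 were higher with zinc in CD8 cells, and 7 had a smaller value in CD4 and 0 a larger one. Pdcd1 had 204 ± 91.3 CPM in zinc-fed CD8 libraries and 8.74 ± 2.99 CPM in CD8 libraries without zinc (-2.79 ± 0.62, adjusted p = 0.022). Tigit had 38.4 ± 17.1 CPM in zinc-fed CD8 libraries and 1.3 ± 0.481 CPM in CD8 libraries without zinc (-3.38 ± 0.46, adjusted p = 0.000254). As given above, Pdcd1 and Tigit were higher with zinc in CD4 cells too.

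T cell receptor and proximal signalling genes differed in the opposite direction. Of 29 tested, 7 had a larger value in CD4 and 1 a smaller one. In CD8 cells alone 0 were higher and 1 was lower with zinc, near the background of 5.1% and 2.64%. Cd3e, a chain of the receptor complex, averaged 1738 CPM with zinc against 936 without in CD4 cells and had 1180.2 ± 142 CPM in zinc-fed CD8 libraries and 1161 ± 127 CPM in CD8 libraries without zinc (0.83 ± 0.18, adjusted p = 0.0152). Of 18 tested killer lectin-like and other NK receptor genes, 8 had a lower value in CD4 than in CD8 and 0 a higher one. Klrd1, the partner chain of NKG2 receptors, had 0.536, 0.813 and 1.0 CPM in the zinc-fed libraries, against 9.76, 7.48 and 6.78 CPM without zinc in CD4 cells. In CD8 cells Klrd1 had 46 ± 4.9 CPM in zinc-fed CD8 libraries and 59.1 ± 5.11 CPM in CD8 libraries without zinc (-3.03 ± 0.40, adjusted p = 0.00014). Background shares of the test between cell types were 1.34% higher and 2.44% lower, and its counts moved with single libraries as described for the processing.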
